A study of Mus musculus with 80 samples.

Results

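A set of 8 genes with very large changes in brown adipose tissue (BAT) of UCP1 KO mice was followed through all 80 RNA sequencing libraries of the study, out of 32764 gene rows counted. The 5 falling genes were Cdhr5, Kcnd2, Trim80, Ranbp3l and Fgf14, and the 3 rising genes were Extl1, Sult4a1 and Vmn2r3. They were chosen by their log2 fold changes between the 5 UCP1 KO and the 5 WT libraries of BAT, which were among the largest of all genes, so the values of that contrast are given as a description without a test. Homozygous male mice of 4 genotypes were used, namely WT, FGF21 KO, UCP1 KO and mice lacking both genes (dKO). All of them were kept at 30 °C from birth, moved to room temperature at 10 to 12 weeks of age and fed a high-fat diet in place of chow for the next 3 weeks, so every group, WT included, had the diet and the temperature change. The labels name no tissue or cell type to which a deletion is limited. Each of 4 tissues, namely BAT, the inguinal white fat depot (iWAT), muscle and liver, gave 5 libraries per genotype, and the labels do not link libraries of the same mouse nor state that the 5 libraries of a group came from separate mice, so p-values measure the spread between these libraries.

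Brown adipocytes make heat through UCP1, a mitochondrial carrier that lets protons leak past ATP synthase, and adipose tissue that lacks UCP1 but is cooled is known to release the hormone FGF21. Several of the genes described here are known mainly from other organs. Kcnd2 encodes a pore-forming subunit of Kv4 potassium channels, which carry fast, transient currents in neurons and heart. Fgf14 belongs to the intracellular fibroblast growth factors, which are not secreted and bind voltage-gated sodium channels. Cdhr5 is a cadherin-related protein of epithelial brush borders, Ranbp3l is a Ran-binding protein that takes part in nuclear export of BMP-activated Smad proteins, and Trim80 belongs to the large tripartite motif family, many members of which are ubiquitin ligases. Extl1 belongs to the exostosin-like glycosyltransferases of heparan sulfate synthesis, Sult4a1 is a cytosolic sulfotransferase known mainly from brain, and Vmn2r3 belongs to the vomeronasal receptors, which sense pheromones.

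The 20 BAT libraries held 30298956 to 49898435 counts on genes, and all 80 held 28691377 to 50380696. Fgf21 had 353 to 1728 counts in UCP1 KO BAT, 7 to 10 in WT, 0 to 2 in FGF21 KO and 0 to 3 in dKO. Ucp1 was still counted in UCP1 KO BAT (24291 to 60779 counts) and dKO BAT (40641 to 90118), below WT (98548 to 216085), and counts per gene do not show which part of the gene the reads came from. The series description names FGF12 as the second gene of the dKO. Fgf12 had 0 to 3 counts in every BAT group. The summed level of 10 brown adipocyte markers in BAT was 3600 to 4530 CPM (the count as a share of the library's total on genes, in parts per 1e6) in WT, 3660 to 4320 in FGF21 KO, 3900 to 5940 in UCP1 KO and 4350 to 5410 in dKO, with all 10 detected in every library. Markers of skeletal muscle and of macrophages moved with the genotype. The 10 muscle genes summed to 24.4 to 110 CPM in WT BAT, 27.1 to 380 in FGF21 KO, 63.9 to 9770 in UCP1 KO and 97.4 to 4830 in dKO, with none at 0. The 8 macrophage genes summed to 120 to 148 CPM in WT BAT, 113 to 205 in FGF21 KO, 199 to 560 in UCP1 KO and 195 to 337 in dKO, also with none at 0, and the part of macrophage RNA in the values of the 8 genes was not tested. In bulk tissue, fewer cells that express a gene and less RNA of it per cell cannot be told apart.

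In BAT of UCP1 KO mice the 5 falling genes were left with 0 to 14 counts per library, while the 3 rising genes came from near 0, with values of all libraries shown in the plot of BAT libraries. Among named genes called in that contrast (an adjusted p under 0.01 in edgeR's quasi-likelihood test) and without overlap between the groups, Fgf14 had the fifth largest fall (log2 fold change -3.69 ± 0.42, SE) and the next gene, Sh3gl3, had -3.55 ± 0.47. Of the rising genes, Vmn2r3 had the largest fitted change, Extl1 the third (7.95 ± 0.56) and Sult4a1 the fourth (a ratio of summed CPM of 433, 95% exact counting interval 77.4 to 17200, against 1 count in WT, and 205 without the library that held 310 of its 508 counts), while Akr1b7, the second (8.00 ± 1.19), and Oxct2b, the fifth (6.86 ± 1.19), were not among the 8. All 8 passed the filter on low counts in BAT (a maximum over 15, a sum over 75 and no more than 10 of 20 libraries at 0), Vmn2r3 exactly at the limit of 10 such libraries. In that contrast 25.2% of 15729 genes tested were called, and 28.8% had no overlap in CPM between the 2 groups, as had all 8 genes, which the choice itself brings about.

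**Figure D1:**
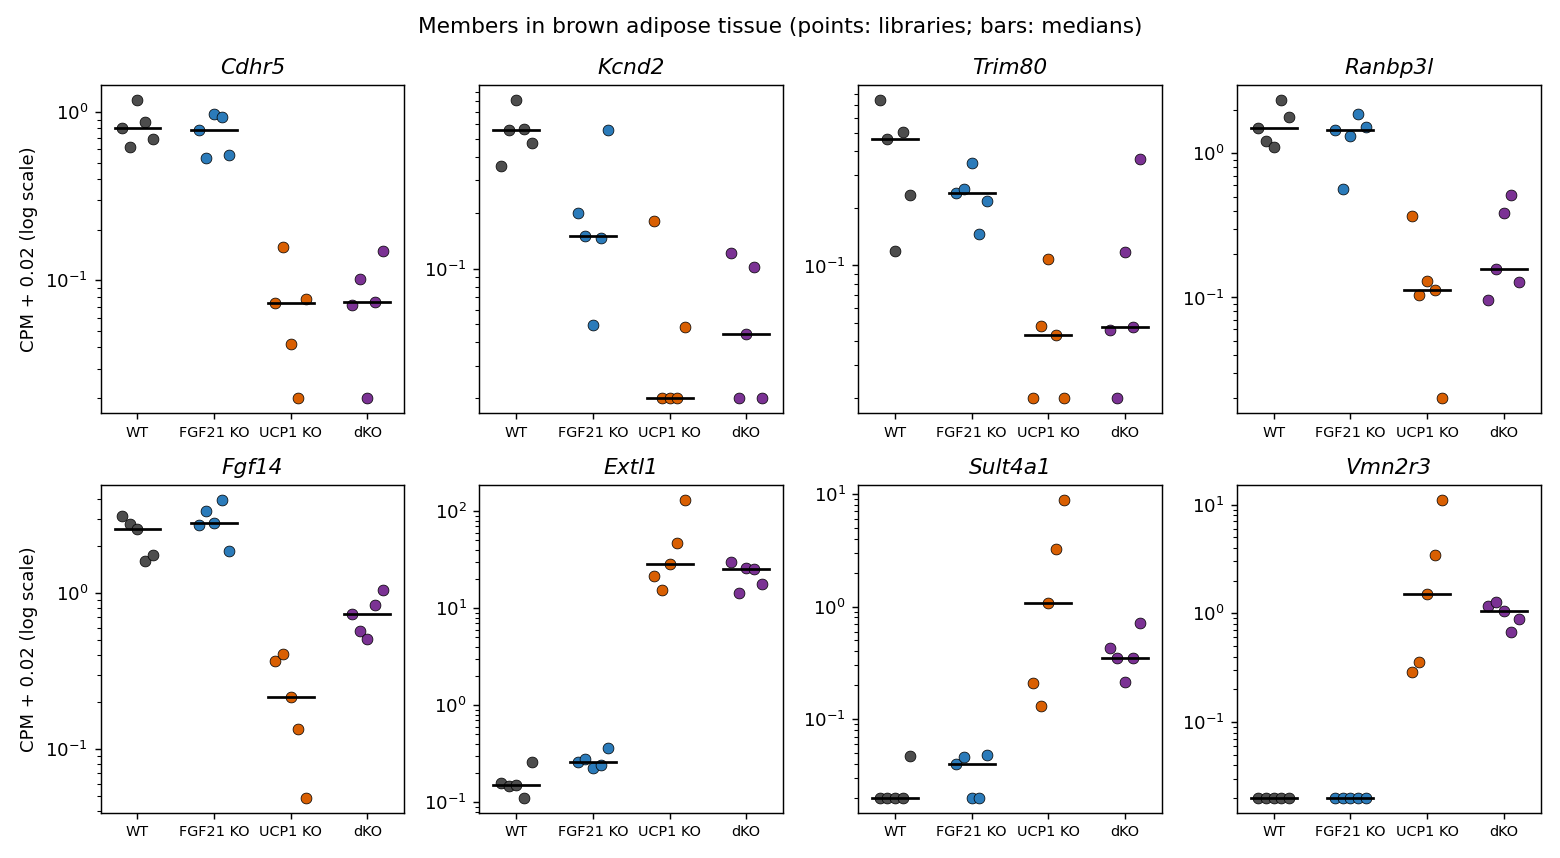
Each point is 1 BAT library, with CPM plus 0.02 on a log axis and the group medians as bars. The 5 UCP1 KO libraries lie below the 5 WT libraries for Cdhr5, Kcnd2, Trim80, Ranbp3l and Fgf14 and above them for Extl1, Sult4a1 and Vmn2r3, and the dKO libraries overlap those of WT for Trim80 alone, where 27.9% of genes tested do not overlap between dKO and WT.

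The question whether these genes also changed with UCP1 loss when FGF21 was absent was addressed by comparing the 5 dKO with the 5 FGF21 KO libraries of BAT. The choice of the genes did not use these libraries, but the fit took its spread from all 20 BAT libraries, including those that did. Cdhr5, Ranbp3l and Fgf14 fell and Extl1 and Vmn2r3 rose in dKO, so that 5 of the 8 were called at an adjusted p under 0.01 (edgeR's quasi-likelihood test, Benjamini-Hochberg over all genes tested). Of the 15729 genes tested, 13.5% were called, 6.74% higher and 6.8% lower in dKO. Kcnd2, Trim80 and Sult4a1 were not called. In a fit of the 2 genotypes alone, where 12.8% of 15174 genes were called, Kcnd2 and Trim80 did not pass the filter and the 6 tested were all called, namely the 5 and Sult4a1. Each of the 8 genes except Fgf14 passed the filter only through the groups in which it was high, so these counts are a description and support nothing about the set. The libraries of dKO and FGF21 KO did not overlap for 6 of the 8, the exceptions being Kcnd2 and Trim80, beside 24.7% of all genes tested. The FGF21 KO and the WT libraries overlapped for all 8, and 3.76% of genes tested did not overlap between these groups.

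The promoters shown are 2, those of the falling gene and the rising gene with the smallest adjusted p in dKO against FGF21 KO, as the 250 bases before the RefSeq start on GRCm38.p6, 5′ to 3′ on the gene's strand. Both genes lie on the minus strand. Capitals mark a match to AGGTCA, the core of many nuclear receptor binding sites, on either strand. Cdhr5 is at chr7:141276787-141277036 and Extl1 at chr4:134372548-134372797, where the last 11 bases lie within the first exon of an Extl1 transcript in GENCODE. The Extl1 window lies inside the span of the gene in GENCODE, at a start downstream of the gene's outermost one, as do those of Fgf14 and Vmn2r3.
Cdhr5: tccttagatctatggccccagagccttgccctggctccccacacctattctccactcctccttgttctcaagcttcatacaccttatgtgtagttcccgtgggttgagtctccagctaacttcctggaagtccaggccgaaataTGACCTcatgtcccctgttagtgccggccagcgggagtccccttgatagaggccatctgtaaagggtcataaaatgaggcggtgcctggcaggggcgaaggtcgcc
Extl1: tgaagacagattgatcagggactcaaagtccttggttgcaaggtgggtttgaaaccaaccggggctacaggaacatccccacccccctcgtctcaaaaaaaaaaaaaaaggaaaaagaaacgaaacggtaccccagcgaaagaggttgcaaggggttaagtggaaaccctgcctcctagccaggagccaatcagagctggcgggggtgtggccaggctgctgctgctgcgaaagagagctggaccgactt
The match in Cdhr5 begins at base -106 and lies on the opposite strand. Promoters were found for 7 of the 8 genes, all but Sult4a1, and AGGTCA was found in that of Cdhr5 alone, while 14.0% of 32851 mouse promoters of this length hold it. TGACGT (the core of cAMP response elements, in 6.47% of all promoters), CACGTG (the E box, 6.02%) and TGATGNAA (the start of the C/EBP-ATF response element, 3.45%) were in none of the 7. The windows did not share base composition. GC content was 68.8% for Kcnd2, 64.0% for Fgf14, 55.6% for Cdhr5, 53.2% for Extl1, 51.2% for Trim80, 48.8% for Ranbp3l and 38.8% for Vmn2r3, beside a median of 52.4% over all promoters.

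Cdhr5, the brush border cadherin, had 19, 25, 28, 28 and 35 counts in the WT libraries of BAT from lowest to highest and 19, 20, 29, 32 and 38 in FGF21 KO. UCP1 KO had 0, 1, 2, 2 and 5 and dKO had 0, 2, 2, 3 and 6. Both groups without UCP1 lay below both groups with it. In CPM the means were 0.811 ± 0.215 (SD, n = 5) in WT, 0.736 ± 0.204 in FGF21 KO, 0.0544 ± 0.0529 in UCP1 KO and 0.0635 ± 0.0472 in dKO. The log2 fold change of dKO against FGF21 KO was -3.66 ± 0.49 (SE; edgeR adjusted p = 4.65e-05). Side by side, without a test, the fitted change was -4.16 ± 0.51 in UCP1 KO against WT. Since liver is the main site of Cdhr5 in these data, 8 hepatocyte markers were summed in BAT and came to 52.1 to 124 CPM in FGF21 KO and 70.9 to 127 in dKO, with none at 0, and their part in the result was not tested.

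Fgf14, the intracellular growth factor, had the highest level of the falling genes in BAT. WT libraries had 53, 65, 78, 87 and 111 counts and FGF21 KO libraries 65, 94, 125, 129 and 135. The dKO libraries had 20, 20, 28, 30 and 48 counts. UCP1 KO libraries were lower still, with 1, 5, 9, 13 and 14. The fall of dKO against FGF21 KO was -2.23 ± 0.37 (SE; edgeR adjusted p = 0.000307), from 2.92 ± 0.789 to 0.721 ± 0.218 CPM (SD, n = 5). Fgf14 was the only one of the 8 whose UCP1 KO and dKO libraries did not overlap in CPM, as 1.09% of genes tested did not, with a fitted difference of -1.80 ± 0.42 (UCP1 KO minus dKO), which is given without a test because the UCP1 KO libraries chose the gene.

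Ranbp3l, the Ran-binding protein of BMP-Smad export, had 33, 38, 53, 66 and 77 counts in WT and 21, 44, 53, 58 and 72 in FGF21 KO. It had 0, 3, 4, 5 and 13 counts in UCP1 KO and 3, 5, 5, 15 and 18 in dKO, below every library with UCP1. The change of dKO against FGF21 KO was -2.70 ± 0.54 (SE; edgeR adjusted p = 0.00149). With the muscle marker score of each library in the model the value stayed at -2.70 but the adjusted p was 0.016, past the threshold of 0.01. It was -3.60 (adjusted p = 0.0036) in libraries with a muscle score at or under 5, and Cdhr5 had -2.92 (adjusted p = 0.000762) there, a choice made after seeing the data.

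Kcnd2, the Kv4 channel subunit, had 12, 17, 17, 18 and 24 counts in WT, but FGF21 KO libraries already spread from 1 over 4, 5 and 9 to 19. UCP1 KO had 3 libraries at 0, 1 with 1 count and 1 with 6, and dKO had 0, 0, 1, 3 and 4. The difference between dKO and FGF21 KO was -2.45 ± 0.86 on the log2 scale (SE; edgeR adjusted p = 0.0403) and was not called. It was -1.71 (adjusted p = 0.163) without the FGF21 KO library of 19 counts and -3.04 (adjusted p = 0.0356) without the dKO library of 4. Trim80, of the tripartite motif family, had 3, 8, 14, 16 and 26 counts in WT and 4, 7, 9, 11 and 11 in FGF21 KO. UCP1 KO had 0, 0, 1, 1 and 4, whereas dKO had 0, 1, 1, 4 and 16, so that 1 dKO library lay above all FGF21 KO libraries. The difference for Trim80 was -1.26 ± 0.71 (SE; edgeR adjusted p = 0.198), and -2.63 (adjusted p = 0.0166) without the dKO library of 16 counts. In BAT libraries with a muscle score at or under 5, a choice made after seeing the data that left 2 dKO libraries, Trim80 had -0.45 (adjusted p = 0.716), and Kcnd2 was at 0 in both of these dKO libraries. Both genes rested on few reads, with sums of 38 and 42 counts over the FGF21 KO group. The exact permutation test of single genes gave p = 0.0476 for Kcnd2 and 0.0714 for Trim80, unadjusted.

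Extl1, the exostosin-like glycosyltransferase, was barely counted in BAT with UCP1, at 3, 4, 4, 5 and 9 counts in WT and 7, 7, 10, 12 and 12 in FGF21 KO. Without UCP1 it was an easily measured transcript. UCP1 KO libraries had 551, 797, 1302, 2064 and 4607 counts and dKO libraries 517, 827, 915, 1072 and 1179, far from overlap with either group that had UCP1. In CPM the dKO mean was 22.7 ± 6.50 and the FGF21 KO mean 0.253 ± 0.0516 (SD, n = 5), a log2 fold change of 6.23 ± 0.52 (SE; edgeR adjusted p = 2.63e-07). Because muscle expresses Extl1 at a median of 47.0 CPM, its level in BAT was set beside the muscle markers. In dKO BAT the summed muscle markers reached 0.0726% to 3.60% of their median in muscle, and that share of the muscle level of Extl1 came to 0.0342 to 1.69 CPM, against 14.2 to 30.1 CPM measured. In UCP1 KO BAT the share was 0.0476% to 7.28%, which came to 0.0224 to 3.43 CPM, against 15.3 to 132 CPM measured. The muscle score is the mean log2 of CPM plus 0.1 over the markers. In UCP1 KO the scores were 2.33, 4.87, 5.95, 2.13 and 9.48 at 132, 47.5, 28.5, 21.4 and 15.3 CPM of Extl1. In dKO they were 8.37, 8.44, 8.43, 4.65 and 2.59 at 30.1, 26.1, 25.1, 17.8 and 14.2 CPM. With the muscle score in the model the dKO change against FGF21 KO was 6.65 (edgeR adjusted p = 2.24e-06). In libraries with a score at or under 5, a choice made after seeing the data, the change was 5.76 (adjusted p = 3.27e-06). The source of the Extl1 reads was not tested.

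Vmn2r3, the vomeronasal receptor gene, had no count in any of the 10 BAT libraries of WT and FGF21 KO. In dKO it had 24, 40, 42, 45 and 46 counts and in UCP1 KO 10, 12, 68, 149 and 388. All 10 libraries without UCP1 thus had the transcript and none of those with UCP1 did. Against a floor of 3 counts over the FGF21 KO group, which covers counting error only, dKO was at least 62.3-fold higher. Because the gene passed the filter only through the UCP1 KO and dKO libraries, at its limit of zeros, its call (edgeR adjusted p = 0.00648) is a description. In 9 of the 10 fits that left out 1 library of dKO or FGF21 KO the adjusted p was 0.0114 to 0.0137, above the threshold. A permutation test of the gene alone (exact, both sides, CPM plus 0.02 on the log2 scale) gave p = 0.00794, the smallest value that 5 against 5 libraries can give, as it did for Cdhr5, Ranbp3l, Fgf14, Extl1 and Sult4a1. Against the WT floor UCP1 KO was at least 178-fold higher, as a description, and at least 82.6-fold without the library of 388 counts, which held most of the 627.

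Sult4a1, the brain sulfotransferase gene, had 1 count in the WT libraries of BAT together and 3 in those of FGF21 KO. The dKO libraries had 8, 12, 12, 16 and 32 counts, without overlap. The ratio of summed CPM was 25.3 (95% exact counting interval 8.35 to 125), and the log2 fold change of 4.18 ± 1.22 was not called at 0.01 (SE; edgeR adjusted p = 0.0167). The call was made with DESeq2 (adjusted p = 0.00149), with the muscle score in the model (0.00603) and in a fit of the 2 genotypes alone (0.000664). It was not made with RLE factors (edgeR adjusted p = 0.0166), without the filter (0.0194) or in libraries with a muscle score at or under 5 (0.0137). Nor was it made when 1 library was left out (0.0176 to 0.0399). With the muscle score the fitted change moved from 4.18 to 5.72. UCP1 KO libraries had 4, 7, 48, 139 and 310 counts.

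The 3 libraries of UCP1 KO BAT with the most Vmn2r3 had the same order for the other rising genes, as the plot of the rising genes shows, and this is a description of libraries that chose the genes. The library with the most Vmn2r3 (11.1 CPM) also had the most Sult4a1 (8.88) and the most Extl1 (132). The library next in order had 3.43 CPM of Vmn2r3, 3.20 of Sult4a1 and 47.5 of Extl1, and the one after it had 1.49, 1.05 and 28.5. In the other 2 libraries the order of Vmn2r3 was opposite to that of the other genes, with 0.269 and 0.334 CPM of Vmn2r3, 0.188 and 0.111 of Sult4a1 and 21.4 and 15.3 of Extl1. The dKO libraries covered 0.658 to 1.26 CPM of Vmn2r3, 0.195 to 0.688 of Sult4a1 and 14.2 to 30.1 of Extl1, each range inside that of UCP1 KO except for the lowest Extl1 value. The muscle scores of the UCP1 KO libraries, in order of falling Vmn2r3, were 2.33, 4.87, 5.95, 9.48 and 2.13.

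**Figure D2:**
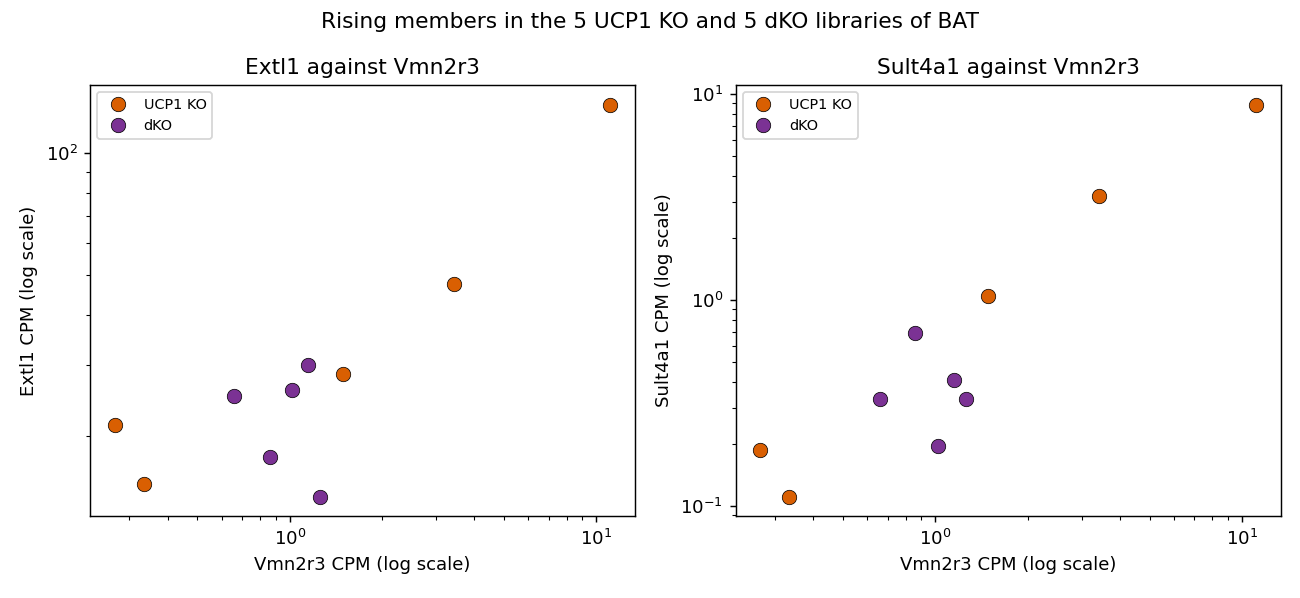
Each point is 1 BAT library of UCP1 KO or dKO, with Vmn2r3 on the horizontal and Extl1 (left) or Sult4a1 (right) on the vertical axis, all in CPM on log axes. The 3 UCP1 KO libraries with 1.49, 3.43 and 11.1 CPM of Vmn2r3 stand in the same order for both other genes, and the dKO libraries lie together at 0.658 to 1.26 CPM of Vmn2r3.

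The genes lie on 7 chromosomes, with Ranbp3l and Sult4a1 far apart on chromosome 15, and their nearest tested genes on either side were 15 in all. In dKO against FGF21 KO 2 of them were called, a share near the 13.5% of all genes. Slc1a3, a glutamate transporter gene 257.2 kb from Ranbp3l (8967949 to 9067335 on chromosome 15), fell by 1.35 ± 0.20 (log2, SE; edgeR adjusted p = 0.00012), the same direction as Ranbp3l. Kctd2, 9.3 kb from Trim80 (115440545 to 115448270 on chromosome 11), fell by 0.52 ± 0.10 (adjusted p = 0.00105). Slc30a2, a zinc transporter gene 1.9 kb from Extl1 (134356372 to 134383850 on chromosome 4), had 1.98 ± 0.63 and was not called (adjusted p = 0.0252), and Efcab6, 10.7 kb from Sult4a1 (84076097 to 84105754 on chromosome 15), had 4.85 ± 1.33 (adjusted p = 0.0119). Pafah2, 12.5 kb from Extl1, had 0.41 ± 0.12 (adjusted p = 0.0138), and Tspan12, 41.6 kb from Kcnd2, had -0.28 ± 0.10 (adjusted p = 0.0353), neither of them called. Irf7, 2.6 kb from Cdhr5 (141269083 to 141276786 on chromosome 7), had 1.59 ± 0.62 (adjusted p = 0.0595). Vmn2r1, the nearest tested gene on one side of Vmn2r3 (64257215 to 64289709 on chromosome 3), had 0.50 ± 0.54 (adjusted p = 0.518). The remaining neighbours Deaf1, Lsm8, Armc7, Nadk2, Itgbl1, Pnpla5 and Kcnab1 had adjusted p of 0.141 to 0.918. Kcnd2 spans 21215503 to 21729805 on chromosome 6 and Fgf14 spans 123977907 to 124677127 on chromosome 14, where the antisense gene 1700024B18Rik overlaps it with 0 counts in every BAT library.

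Genes of the same families or complexes were compared in dKO against FGF21 KO in BAT, where the median of all genes tested was 0.0037. Of the 15729 genes, 13.5% were called by edgeR, 6287 (39.97%) had an unadjusted p under 0.05 in this comparison, and DESeq2 called 19.5% of the 15713 to which it gave an adjusted p. Counts by these rules are read against those shares. For Kcnd2, 8 other genes of the Kv4 complex were counted, of which 3 passed the filter and 1 fell. Kcnd3, another Kv4 subunit, changed by -0.79 ± 0.21 (SE; edgeR adjusted p = 0.00966), from 1.27 ± 0.197 to 0.854 ± 0.120 CPM, and the median of the 3 was 0.01. For Fgf14, 8 of 16 other intracellular growth factor and sodium channel genes were tested and Scn4b, a sodium channel beta subunit, rose by 3.32 ± 0.86 (adjusted p = 0.00855), from 0.855 to 5.08 CPM in FGF21 KO to 2.91 to 43.7 CPM in dKO. The median of the 8 was 0.59. For Cdhr5, 2 of 7 other brush border and Cdhr genes were tested (median 0.28) and edgeR and DESeq2 each called 0, with 0 at an unadjusted p under 0.05.

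For Ranbp3l, 18 other Ran and BMP-Smad genes were tested, with a median of -0.03. Ran, the small GTPase of nuclear transport, rose by 0.50 ± 0.10 (edgeR adjusted p = 0.00111) from 66.8 ± 3.32 to 111 ± 19.5 CPM. Smad6, an inhibitory Smad, fell by 0.79 ± 0.18 (adjusted p = 0.00337). Of the 15 other heparan sulfate genes tested beside Extl1 (median -0.10), none rose and 2 fell, a share near that of all genes, namely Sulf2, an extracellular sulfatase (-0.87 ± 0.13, adjusted p = 0.000109), and Ndst2, a sulfotransferase of the chain (-0.36 ± 0.08, adjusted p = 0.00225). For Sult4a1, 10 of 19 sulfotransferase genes had no count in BAT. Of the 5 others tested (median -0.29), edgeR called 0, DESeq2 1, and 3 had an unadjusted p under 0.05.

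The Vmn2r family was almost silent in BAT, with 109 of 122 genes without a count in the 20 libraries. Of the 3 tested beside Vmn2r3 (median -0.50), 2 fell in dKO, namely Vmn2r57 (-1.54 ± 0.31, edgeR adjusted p = 0.00143) and Vmn2r29 (-0.50 ± 0.12, adjusted p = 0.00581). Reads of this family can be shared between near-identical copies, and how the counting treated them is not known here. For Trim80, 47 other Trim genes were tested (median 0.08), of which 6 rose and 2 fell. The largest rises were those of Trim72, a muscle gene (4.26 ± 1.05, adjusted p = 0.00635), Trim66 (3.07 ± 0.47, adjusted p = 0.000155), Trim7 (3.02 ± 0.49, adjusted p = 0.000248) and Trim46 (2.95 ± 0.42, adjusted p = 7.97e-05), the last with 2.09 to 3.22 CPM in dKO and 0.190 to 0.361 in FGF21 KO. The part of muscle RNA in the values of Scn4b and Trim72 was not tested.

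Marker lists of cell types were counted in the same comparison. All 10 muscle markers had an unadjusted p under 0.05 (median 4.09), of which edgeR called 0 and DESeq2 10. Of 10 brown adipocyte markers, Elovl3, a fatty acid elongase, rose by 3.01 ± 0.41 (edgeR adjusted p = 4.54e-05), and the list's median was -0.13. Of 6 adipocyte markers (median -0.21), Cfd fell by 2.60 ± 0.55 (adjusted p = 0.0023) and Adipoq by 1.01 ± 0.17 (adjusted p = 0.00038). Of 8 macrophage markers (median 0.54), Ctss rose by 1.16 ± 0.29 (adjusted p = 0.0076) and Cd68 by 1.13 ± 0.28 (adjusted p = 0.00626). Of 6 lymph node markers tested (median 1.22), Cd3e rose by 1.61 ± 0.41 (adjusted p = 0.00697), and of 6 endothelial markers (median -0.01), Tek fell by 0.39 ± 0.07 (adjusted p = 0.000975). None was called by edgeR among 4 white adipocyte (median -0.57), 4 nerve (-0.02), 6 Schwann cell (-0.43) and 8 hepatocyte markers (1.19), with 2, 1, 1 and 6 at an unadjusted p under 0.05 and 0, 0, 0 and 2 called by DESeq2. The nerve markers, which bear on Kcnd2, Fgf14 and Sult4a1, summed to 2.53 to 5.43 CPM over all BAT libraries, with Dbh at 0 in WT, UCP1 KO and dKO and Th at 0 in FGF21 KO.

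The 8 genes were highest in different tissues, shown in the map of group medians. Cdhr5 was a liver gene, with group medians of 44.2 to 54.1 CPM in liver, while its next highest median was 0.831 in iWAT of FGF21 KO and no liver library overlapped it. Extl1 was highest in muscle, at 45.0 to 50.1 CPM, and UCP1 KO and dKO BAT (28.5 and 25.1) came next, followed by iWAT of FGF21 KO and liver (9.53 to 13.7). UCP1 KO BAT overlapped both of its neighbours in that order. Kcnd2, Trim80 and Fgf14 had their highest medians in BAT with UCP1, at 0.538 (WT), 0.443 (WT) and 2.78 (FGF21 KO). Fgf14 in WT BAT (2.57) was separated from the next group, dKO BAT (0.715), and was at or near 0 in liver and muscle. The order of neighbouring groups was not resolved for Kcnd2 and Trim80, since every group overlapped the next one. Ranbp3l had 1.96 CPM in WT iWAT and 1.48 in WT BAT, which overlapped, and with factors from the trimmed mean of M values over all 80 libraries WT BAT (1.56) was the highest. Sult4a1 and Vmn2r3 were highest in UCP1 KO BAT (1.05 and 1.49), followed by dKO BAT (0.330 and 1.02), with overlap. In muscle Vmn2r3 had no count in WT, FGF21 KO and UCP1 KO and 2 in 1 library of dKO.

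**Figure D3:**
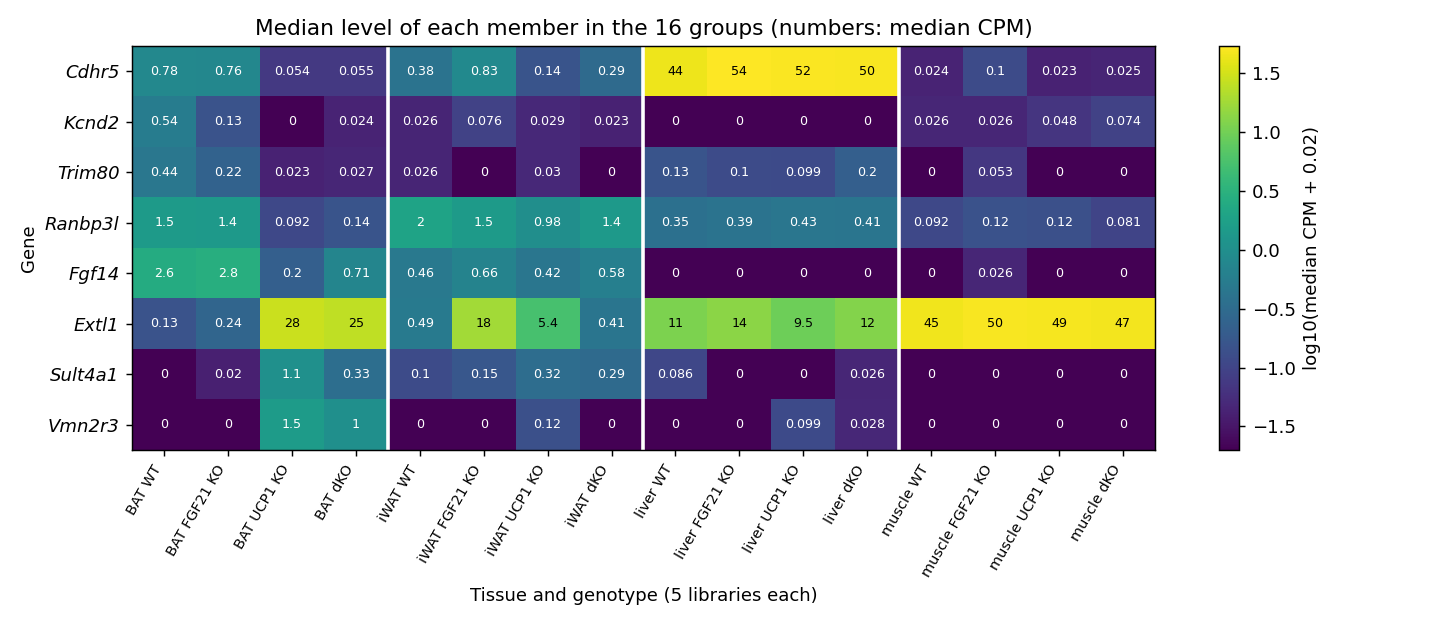
Rows are the 8 genes, columns the 16 groups of tissue and genotype with 5 libraries each, and colours log10 of the median CPM plus 0.02, with the median CPM printed. Cdhr5 is highest in liver (44.2 to 54.1) and Extl1 in muscle (45.0 to 50.1), and in BAT the medians of Extl1, Sult4a1 and Vmn2r3 are at most 0.240 with UCP1 and at least 0.330 without it.

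Over the 16 group means of log2 CPM, the genes most like each were named by Pearson correlation, as a description in which groups share tissue and library depth. Cdhr5 was most like Glt1d1 (0.985), Acat3 (0.984) and Pon1 (0.983). Kcnd2 was most like Syndig1 (0.857), Sh3gl3 (0.838) and Nts (0.837), Trim80 like Nat1 (0.928), Abcb10 (0.911) and Mlxipl (0.891), and Ranbp3l like Zfp395 (0.910) and Lmnb2 (0.902). Fgf14 was most like Atoh1 (0.969), Adcy6 (0.969) and Pet100 (0.962). Extl1 was most like Sqstm1 (0.958), Nars (0.921) and Nceh1 (0.918), Sult4a1 like Rexo2 (0.929), Riok2 (0.923) and Spata25 (0.919), and Vmn2r3 like Rnf185 (0.949), Oxct2b (0.943) and Kcnh6 (0.937). Among the 8 themselves the highest values were those of Sult4a1 with Vmn2r3 (0.726) and Kcnd2 with Fgf14 (0.687).

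In iWAT, liver and muscle none of the genes that passed the filter was called. In iWAT 5 genes were tested, in liver 3 (Cdhr5, Ranbp3l and Extl1) and in muscle Extl1 alone. For UCP1 KO against WT the share of all genes called by edgeR was 0.61% in iWAT, 0.0694% in liver and 0.0265% in muscle, and for dKO against FGF21 KO it was 0.0115%, 0.00694% and 0.0595%. Sult4a1 in iWAT of UCP1 KO against WT was the only one of these values with an unadjusted edgeR p under 0.05 (14.7% of all genes in that comparison), and DESeq2, which called 3.49% of the 17088 genes to which it gave an adjusted p, called it alone. In liver, Cdhr5 changed by 0.20 ± 0.10 (log2, SE) in UCP1 KO against WT and by -0.05 ± 0.10 in dKO against FGF21 KO, with edgeR adjusted p of 0.501 and 0.965, with 1296 to 2158 counts per library. In muscle, Extl1 changed by 0.08 ± 0.09 and -0.09 ± 0.09 (adjusted p of 0.817 and 0.914), with 1480 to 2768 counts. Extl1 in liver had -0.10 ± 0.36 and -0.13 ± 0.35 (adjusted p of 0.95 and 0.983), with libraries between 2.64 and 16.4 CPM. Ranbp3l in liver had 0.24 ± 0.42 and -0.12 ± 0.39 (adjusted p of 0.884 and 0.987). For dKO against FGF21 KO in iWAT, where DESeq2 called 0 of the 5 and none of them had an unadjusted edgeR p under 0.05 (8.62% of all genes), the values were -1.02 ± 0.72 for Cdhr5, -0.77 ± 1.35 for Extl1, -0.34 ± 0.37 for Fgf14, 0.09 ± 0.32 for Ranbp3l and 0.78 ± 0.72 for Sult4a1.

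**Figure D4:**
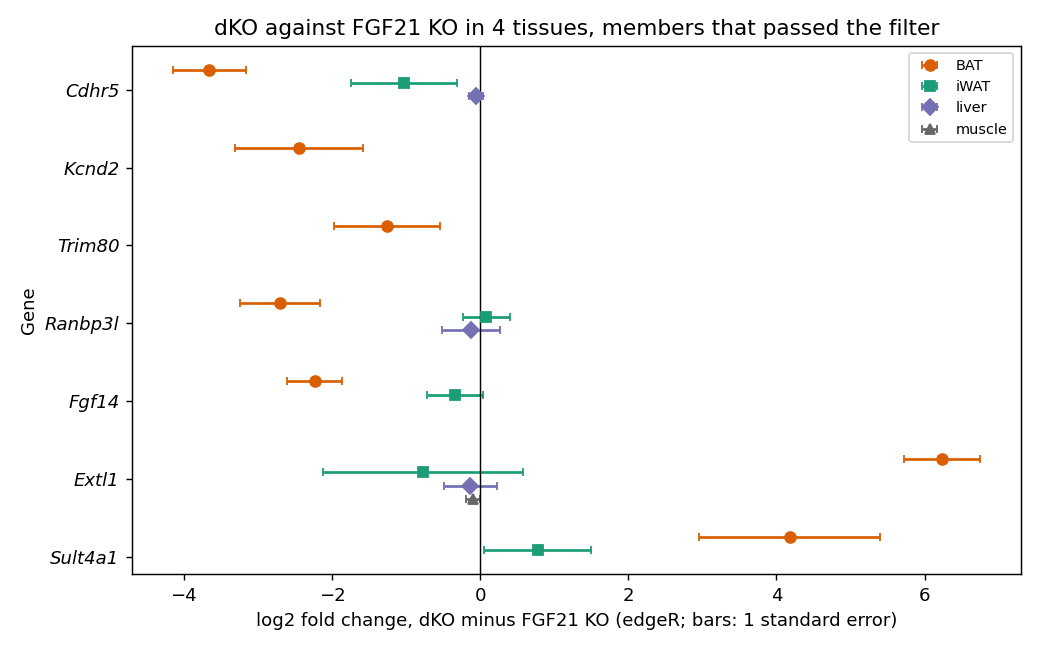
Points are log2 fold changes of dKO against FGF21 KO with 1 standard error for the genes that passed the filter in each tissue. Vmn2r3 is left out because its FGF21 KO group is at 0. The BAT values of Cdhr5 (-3.66), Ranbp3l (-2.70), Fgf14 (-2.23) and Extl1 (6.23) lie more than 2 standard errors from 0. So do those of Sult4a1 (4.18) and Kcnd2 (-2.45), which were not called, while Trim80 (-1.26) and the values of the other tissues lie within 2 standard errors of 0.

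The difference between tissues was tested directly as the change of dKO against FGF21 KO in BAT minus that in another tissue, in a fit of both tissues. Extl1 differed from muscle by 6.32 ± 0.51 (SE; edgeR adjusted p = 1.1e-10), from liver by 6.36 ± 0.65 (adjusted p = 2.9e-08) and from iWAT by 6.99 ± 1.61 (adjusted p = 0.00797). Cdhr5 differed from liver by -3.58 ± 0.37 (adjusted p = 2.93e-08). No other gene was called by edgeR. Ranbp3l had -2.78 ± 0.67 against iWAT (adjusted p = 0.0106), -2.575 ± 0.68 against liver (0.0134) and -2.48 ± 0.82 against muscle (0.03375). Fgf14 had -1.90 ± 0.56 against iWAT (adjusted p = 0.033). For genes at or near 0 counts in the other tissue the test could not decide. Vmn2r3 had standard errors of 36640 against iWAT and 25000 against muscle, and Trim80 had 3.75 against iWAT. Of all genes tested, 1.84% differed between BAT and iWAT, 3.32% between BAT and liver and 7.7% between BAT and muscle. The call against iWAT was lost without the filter on low counts (adjusted p = 0.0101) and in all but 3 of 20 fits that left out 1 library (adjusted p = 0.0107 to 0.0173). In these fits the difference was 6.68 to 7.12. In iWAT, 4 FGF21 KO and 2 dKO libraries had lymph node markers, as described below, and 15.7 to 26.8 CPM of Extl1. The other iWAT libraries of these groups had 0.128 to 0.415 CPM. The part of this imbalance in the difference was not tested.

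Extl1 in iWAT moved with lymph node markers. The lymph node score (mean log2 of CPM plus 0.1 over 7 marker genes) was 6.57 to 7.80 in 9 of the 20 iWAT libraries and -0.72 to 1.69 in the other 11. The 9 libraries had 10.8 to 26.8 CPM of Extl1 in all 4 genotypes. Of the other 11, 4 UCP1 KO libraries had 2.50 to 11.8 CPM, and 3 WT libraries had 0.136 to 0.486, 3 dKO libraries 0.179 to 0.415 and 1 FGF21 KO library 0.128, so that UCP1 KO did not overlap the others. With all 20 libraries Extl1 had 0.63 ± 1.35 in UCP1 KO against WT (SE; edgeR adjusted p = 0.915). It had 1.80 without the WT library of 23.1 CPM, 0.18 without the UCP1 KO library of 22.3 CPM and 2.36 with the muscle score in the model (edgeR adjusted p of 0.627, 0.952 and 0.581). In the 11 libraries alone, a choice made after these values were seen, it rose by 4.40 in UCP1 KO against WT (adjusted p = 0.00325) and by 4.63 against dKO (adjusted p = 0.00787), where 4.1% and 1.07% of genes were called. The exact permutation test for 4 against 3 libraries gave p = 0.0571 in both cases, the smallest it can give. Muscle markers also varied among these 11 libraries. In the 4 UCP1 KO libraries they reached 0.0253%, 0.0312%, 0.257% and 14.2% of their median in muscle, and at those shares of the muscle level Extl1 would have 0.0119, 0.0147, 0.121 and 6.67 CPM, against 4.85, 2.50, 11.8 and 5.41 CPM measured. The last of these libraries was thus the only one of the 4 in which the muscle share came to more than the measured level. In the 7 others of the 11 the share was 0.0174% to 0.102%. Without the library at 14.2%, also a choice made after these values were seen, the change was 4.47 against WT (edgeR adjusted p = 0.00232) and 4.71 against dKO (adjusted p = 0.00361). The source of the Extl1 reads in iWAT was not tested. In BAT the 7 lymph node markers summed to 1.62 to 12.0 CPM, with none at 0, and the score was -1.73 to 0.55.

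**Figure D5:**
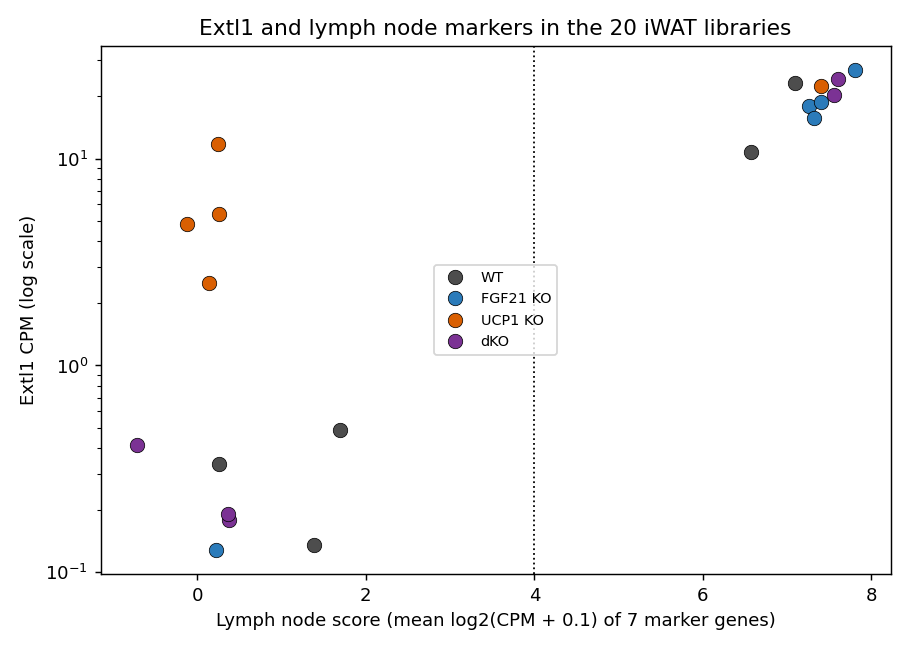
Each point is 1 iWAT library, with the lymph node score on the horizontal axis and Extl1 in CPM on a log vertical axis. The 9 libraries right of the dotted line at a score of 4 lie at 10.8 to 26.8 CPM whatever the genotype, and left of it the 4 UCP1 KO libraries (2.50 to 11.8 CPM) lie above the 7 others (0.128 to 0.486).

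Cdhr5 and Kcnd2 were also higher in the iWAT libraries with lymph node markers, Kcnd2 with overlap at 1 count. Cdhr5 had 0.503 to 1.85 CPM in the 9 libraries and 0.0591 to 0.384 in the 11, and Kcnd2 had 1 to 18 counts in the 9 and 0 or 1 in the 11. The number of such libraries was 2 in WT, 4 in FGF21 KO, 1 in UCP1 KO and 2 in dKO, and its part in the genotype values of these genes was not tested. Ranbp3l and Fgf14 overlapped between the 2 kinds of library, at 0.728 to 2.18 against 0.709 to 2.39 CPM and 0.246 to 0.676 against 0.167 to 1.00 CPM.

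Vmn2r3 and Sult4a1 had their highest iWAT medians in UCP1 KO, the iWAT group that also had the most Ucp1 counts (3942 to 20264, against 109 to 776 in WT) and the most Fgf21 counts (23 to 385, against 2 to 11). The 10 brown adipocyte markers summed to 485 to 2200 CPM in UCP1 KO iWAT, 126 to 175 in WT, 55.7 to 147 in FGF21 KO and 87.4 to 209 in dKO, with none at 0 throughout a group, and their part in these values was not tested. Vmn2r3 had 0, 1, 4, 13 and 41 counts in UCP1 KO iWAT, 1 count in 1 dKO library and 0 in all other iWAT libraries. It did not pass the filter in iWAT. Its summed CPM in UCP1 KO was at least 22.2-fold that of a floor of 3 counts over WT, and at least 8.40-fold without the library of 41 of the 59 counts. The exact permutation test gave p = 0.0476 against WT and against dKO. Sult4a1 had 5, 6, 11, 15 and 60 counts in UCP1 KO, 1, 2, 4, 4 and 6 in WT and 3, 5, 12, 12 and 17 in dKO, with overlap. Its change was 2.87 ± 0.76 against WT (SE; edgeR adjusted p = 0.0507) and 1.51 ± 0.70 against dKO (adjusted p = 0.334). Without the library of 60 counts these values were 1.74 (adjusted p = 0.27) and 0.37 (adjusted p = 0.913). In liver Vmn2r3 had 0, 0, 3, 10 and 11 counts in UCP1 KO and 1 count over all WT libraries (exact permutation p = 0.167), a ratio of summed CPM of 28.5 (95% exact counting interval 4.65 to 1170). Of the falling genes, Ranbp3l had 24 to 53 counts in UCP1 KO iWAT and 51 to 88 in WT (-0.66 ± 0.32, edgeR adjusted p = 0.352; unadjusted exact permutation p = 0.0317), and Fgf14 had 0.18 ± 0.38 (adjusted p = 0.913). For UCP1 KO against dKO in iWAT 0.466% of genes and none of the 5 were called, 1 of them having an unadjusted edgeR p under 0.05, as had 14.2% of all genes, and DESeq2 calling 0 of them and 3.13% of all genes.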

How the data were processed

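Poly(A)-selected, strand-specific RNA libraries of BAT, iWAT, liver and muscle were sequenced by the authors as 100 bp paired-end reads. The authors deposited read counts per gene for each library, made with STAR and HTSeq on mm10 (GRCm38), as whole numbers without normalization. Whether HTSeq used the strand is not given in the sources used here. Reads outside genes are not in these counts, and the 1 row that names no gene (at most 3.42e-05% of a library) was left out. Totals were 28691377 to 50380696 counts (median 38022853), and no pair of libraries was identical. Counts do not tell reads from molecules, so counting intervals cover counting error only.

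Samples were grouped by tissue and genotype labels. Within each tissue, genes were tested if their 20 libraries held a maximum over 15, summed to over 75 and were at 0 in at most 10, as in the study's methods, and TMM factors and edgeR's quasi-likelihood test were used (edgeR 4.0.16, limma 3.58.1, R 4.3.3), with Benjamini-Hochberg adjustment over all genes tested and calls at an adjusted p under 0.01. Standard errors are those implied by the F statistic. DESeq2 1.42.0, RLE factors, no filter, 2 genotypes alone, a muscle score, a threshold of 0.05 and leaving out each library were alternatives. The BAT fit was also run on simulated counts with known changes, and the outcome is not reported here. CPM was computed from each library's total. For single genes, 80 exact two-sided permutation tests on log2(CPM + 0.02) were run in 10 comparisons, and these p-values are unadjusted. Intervals of ratios are exact binomial at 95%.

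The 8 genes and all lists were chosen with earlier results of these data known. The other genes named are the label checks Ucp1, Fgf21 and Fgf12, at most 4 called genes per list (the largest changes), the 3 genes most like each gene over the 16 groups (log2 CPM with a prior count of 0.5; 1 of them is not reported here) and the nearest tested gene on each side in GENCODE on GRCm38. Promoters are those of RefSeq on GRCm38.p6.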

Additional observations from a re-analysis of the deposited data

Results flagged for a closer look

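Of 49 groups of 5 libraries with a median of at least 10 counts, 4 held a library far from the other 4 by Dixon's criterion, and chance gives about 1 such library in 20 groups. Extl1 in UCP1 KO BAT had a highest library of 132 CPM, where the next had 47.5 and the lowest 15.3. The same library had the most Sult4a1 and Vmn2r3. Sult4a1 in UCP1 KO iWAT had a highest library of 1.77 CPM, where the next had 0.446. Extl1 in FGF21 KO liver had a lowest library of 6.51 CPM, where the next had 12.7. Ranbp3l in dKO liver had a highest library of 0.844 CPM, where the next had 0.478. Tests of the difference between tissues in the change of dKO against FGF21 KO were passed for Extl1 in BAT minus iWAT (6.99 on the log2 scale, SE 1.61), BAT minus liver (6.36, SE 0.65) and BAT minus muscle (6.32, SE 0.51), and for Cdhr5 in BAT minus liver (-3.58, SE 0.37). For BAT minus iWAT, the iWAT groups differed in the number of libraries with lymph node markers, as given above.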

How the results depend on the processing

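No paired analysis was possible because the labels carry no replicate numbers and do not link libraries of the same mouse, and replicate numbers given here only follow the order of the deposited samples. In dKO against FGF21 KO in BAT, 5 of the 8 genes were called, and 4 to 5 when 1 library was left out. There, Ranbp3l was lost with the muscle score in the model, and Vmn2r3 in a fit of libraries with a muscle score at or under 5, chosen after seeing the data (adjusted p = 0.0293), in which fewer libraries remained. In iWAT, where 0 were called, UCP1 KO against WT gave 1 with DESeq2 (Sult4a1), and 1 (Extl1) with the lymph node score in the model or in libraries with a score at or under 4, both chosen after seeing the data, as did UCP1 KO against dKO with 1 each. Both comparisons also gave 1 (Extl1) in libraries with a lymph node score at or under 4 and a muscle score at or under 5. With the lymph node score in the model Extl1 had 4.09 (adjusted p = 0.00245) and 3.99 (adjusted p = 0.00233). Its difference of 0.37 between UCP1 KO and dKO in all iWAT libraries became -0.08 without UCP1 KO replicate 2, and leaving out 1 library gave -0.08 to 1.12. In the other iWAT, liver and muscle comparisons, leaving out a library gave 0 to 0. For BAT minus iWAT, 1 gene was called, 3 at a threshold of 0.05, 3 with DESeq2, 0 without the filter, and 0 to 3 when 1 library was left out. For BAT minus liver the count was 2 to 3 when 1 library was left out, and for BAT minus muscle 1 throughout, with 2 at a threshold of 0.05. The causes were not tested. With TMM factors over all 80 libraries, 7 of the 8 genes kept their highest group, the exception being Ranbp3l. Counts under 10 per library limit what can be said of Kcnd2, Trim80 and, outside BAT, Vmn2r3.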
